A study of Homo sapiens with 3 samples.

Results

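Collagen genes were described in the 5637 bladder cancer cell line, an established line from a human urinary bladder carcinoma, in its parental form (5637P) and in a gemcitabine-resistant derivative (5637GR). Gemcitabine is a deoxycytidine analog that blocks DNA synthesis. The members were the protein-coding genes of the deposited RNA-Seq table whose symbol has the form COL, a number, A and a number, which are the genes of the collagen α chains. There were 42 of them among 29960 genes. The rule reads gene symbols and gene types.

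The labels give the parental cells as WT and the resistant cells as Gemcitabine Resistant, both untreated at harvest and both grown in RPMI medium with fetal bovine serum. The resistant line was made by exposure to gemcitabine, for which the labels name an acute treatment and the methods of the study a stepwise rise in concentration, and each library is from a single-cell clone. The study made 3 clones per group, of which 3 libraries in all could be tied to a label, namely 1 parental clone and resistant clones 1 and 2. They held 14475531, 15836788 and 17461941 reads on genes, in this order. The table also holds the authors' mean of normalized read counts for each group, which carries no spread. It includes clones whose own values were not used here. The libraries are from a cultured line, and its type was checked with markers. The fibroblast markers found in the table (5 of 6) summed to 0.989, 1.10 and 2.77 CPM (read counts relative to the library total, scaled by the TMM method of edgeR) in the parental clone and resistant clones 1 and 2, whereas the 7 epithelial markers summed to 3730, 2747 and 1951 CPM. The fibroblast markers FAP and LUM had no read in any of the 3 libraries, THY1 had 0, 9 and 27 reads, PDGFRA 12, 5 and 19 and PDGFRB 2, 4 and 2. THY1 was thus higher in both resistant clones, with an adjusted p of 0.240 in edgeR and of 0.00861 with no filter. Its group means went the other way, from 20.8 (parental) to 15.7 (resistant), a log2 ratio of -0.38. Smooth muscle markers summed to 4.45, 7.48 and 6.35 CPM, of which ACTA2, higher in both resistant clones, made up 2.47, 6.37 and 4.68 CPM. MYH11 was lower in both resistant clones, at 1.98, 1.04 and 1.50 CPM, and DES had 0, 1 and 3 reads. Of the epithelial markers 5 of 7 were lower in both resistant clones, where 34.4% of all expressed genes were. EPCAM was higher in both, at 284, 338 and 292 CPM. For CDH1, at 339, 398 and 321 CPM, the resistant clones lay on either side of the parental clone. KRT8 made up 2261, 1670 and 1017 CPM of the epithelial sums. The part of all these markers in the collagen values was not tested.

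Collagens are proteins of the extracellular matrix built of 3 α chains that wind into a triple helix. Fibrillar collagens form the fibers of connective tissue, and type IV collagen forms the sheet of the basement membrane on which urothelium rests. Type VII collagen makes the anchoring fibrils beneath that sheet, and type XVII collagen is a transmembrane protein of hemidesmosomes, the junctions that hold basal epithelial cells to it. FACIT collagens attach to the surface of fibrils, type VI collagen makes beaded filaments, and the multiplexins lie in basement membranes.

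A gene was called expressed when the mean of the authors' 2 group means was at least 10 normalized counts, a level that does not depend on which group was higher. By this measure 22 of the 42 collagen genes were expressed, as were 14630 of all 29960 genes. Of the classes, the network-forming collagens had 6 of 9 members expressed, the fibrillar 5 of 11, the FACIT 5 of 9, the transmembrane 2 of 4, the beaded filament class 2 of 6 and the multiplexins 1 of 2, and the anchoring fibril collagen COL7A1 was expressed. Just above the level were COL6A2, with group means of 28.9 (parental) and 8.42 (resistant), and COL22A1, with 30.7 and 2.52. Both passed only through the parental group, so that a difference between the groups was built into their selection. Just below it were COL8A2, with 9.73 and 8.31, and COL25A1, with 2.48 and 13.3.

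The collagen RNA of these cells was mostly that of epithelial basement membrane collagens. On the scale of FPKM (read counts divided by gene length and library total, as deposited by the authors), which allows levels of different genes to be compared, the 42 genes summed to 618 in the parental clone, 368 in resistant clone 1 and 619 in resistant clone 2. The genes of types IV, VII and XVII made up 82.6%, 74.5% and 82.1% of these sums. COL4A2 had the highest level in each library, at 184, 92.8 and 200 FPKM. It was followed by COL7A1 in the parental clone, at 108 FPKM, and by COL17A1 in both resistant clones, at 70.1 and 121 FPKM. COL7A1 and COL17A1 lay close together in the parental clone, where COL17A1 had 107 FPKM. The fibrillar class summed to 47.7, 40.4 and 40.2 FPKM, lower in both resistant clones, while the network class was at 317, 172 and 322 FPKM, lowest in resistant clone 1. Collagen genes took 0.426%, 0.246% and 0.404% of the reads.

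**Figure D1:**
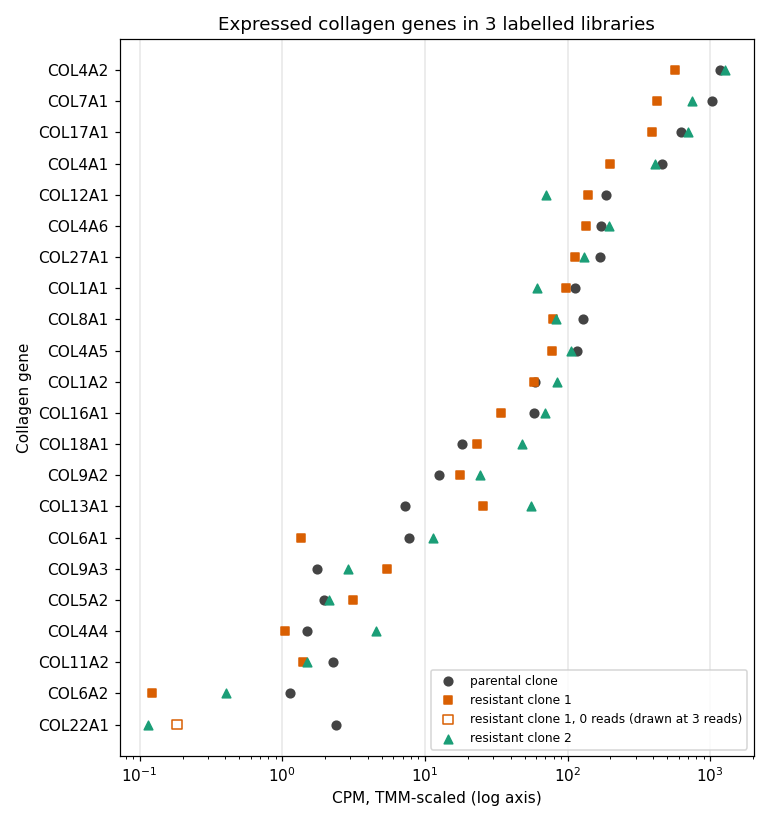
TMM-scaled CPM (log axis) of the 22 expressed collagen genes in the parental clone and in resistant clones 1 and 2, 1 point per library, ordered by the mean of the group means. COL4A2 lay at 1181, 566 and 1264 CPM, and COL22A1 had no read in resistant clone 1, which is drawn as an open square at the level of 3 reads.

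**Figure D2:**
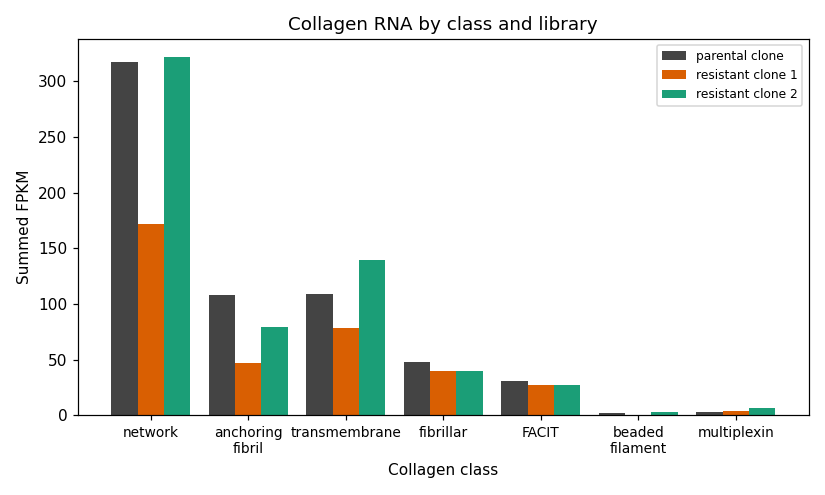
Summed FPKM of the collagen genes of each class, 1 bar per library, without error bars since each bar is a single library. The network class was at 317 FPKM in the parental clone, 172 in resistant clone 1 and 322 in resistant clone 2.

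The comparison of resistant with parental cells asked which genes differ with gemcitabine resistance. COL13A1, COL18A1 and COL9A2 had higher values in the resistant group, and COL6A1, COL6A2 and COL22A1 lower values, each by at least 2-fold in the group means. In RNA of a whole culture, fewer cells that express a gene and less RNA per cell cannot be told apart. The genes with the highest levels, COL4A2, COL7A1 and COL17A1, differed by less than that. With 1 added to each group mean, the log2 ratio of resistant over parental had a median of -0.03 in the 22 expressed members, against 0.01 over all 14630 expressed genes, with 11 members higher, where 51.4% of all expressed genes were, and 11 lower. At least 2-fold higher were 3 of the 22, where 3.21% of all expressed genes were, and at least 2-fold lower were also 3, against 3.15%, which makes 6 in either direction, against 6.36%. Of the lower ones, COL6A2 and COL22A1 passed the level of expression only through the parental group, so their difference was partly built into their selection. The 11 higher members include COL1A1, whose log2 ratio was 0.00. The group means carry no error, and no test was run on them.

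On the reads of the 3 libraries, edgeR's quasi-likelihood test was fitted across all expressed genes, in which the lone parental clone is assumed to vary like the resistant clones. None of the 22 members had an adjusted p under 0.05 (Benjamini-Hochberg), where 0.54% of all expressed genes did. At an unadjusted p under 0.05 there were 3 members, COL22A1, COL13A1 and COL6A2, against 9.59% of all expressed genes. Of these, COL22A1 and COL6A2 passed the filter only through the parental group. Their place here, and among the members below the parental clone, was partly built in by the selection. DESeq2 on the same reads called 1 member, COL13A1, against 1.7% of genes. Whether these libraries were separate cultures is stated only in that they are separate clones. The p-values rest on the spread between 2 resistant clones, largely shared over all fitted genes and not that of each gene alone. Both resistant clones lay above the parental clone for 5 members, where 35.1% of all genes did, and both lay below it for 10, where 34.4% did. For the other 7 the resistant clones lay on either side of it, as for 30.6% of genes. For 13 members the group means had the same direction as both clones, against 63% of genes, and for 2, COL1A1 and COL8A1, they did not, which was also the case for 6.44% of all expressed genes. The group means of COL1A1, 1569.1 (parental) and 1569.21 (resistant), were too close to give a direction.

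**Figure D3:**
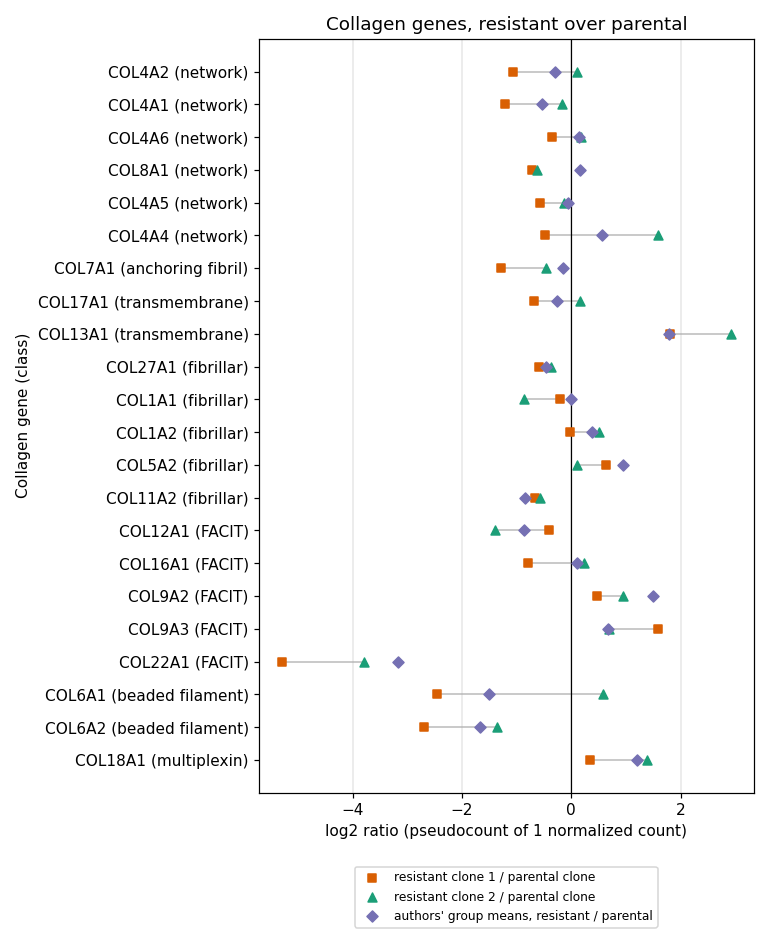
Log2 ratio of resistant to parental for the 22 expressed collagen genes, grouped by class, for resistant clone 1 (squares) and resistant clone 2 (triangles) each against the parental clone, and for the authors' group means (diamonds). COL13A1 lay right of 0 in all 3 measures (1.80, 2.92 and 1.80) and COL22A1 left of it, at -3.17 in the group means and with no read in resistant clone 1, while COL6A1 lay at -2.46 in resistant clone 1 and 0.57 in resistant clone 2.

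COL13A1 (ENSG00000197467, chromosome 10, 71561644 to 71724031, plus strand, positions in the build of the table, for which the submitters' notes name hg19) had the highest ratio of the expressed members in both resistant clones and in the group means. It encodes a transmembrane collagen of cell-matrix contacts. Its reads numbered 103 in the parental clone, 416 in resistant clone 1 and 964 in resistant clone 2, which is 7.27, 25.5 and 55.6 CPM. Both resistant clones lay above the parental clone. The ratio was 3.51 in clone 1 (95% counting interval 2.82 to 4.39, exact) and 7.65 in clone 2 (6.24 to 9.47), and intervals of this kind cover counting error only. The group means were 395 and 113, a log2 ratio of 1.80. In edgeR's quasi-likelihood test the log2 fold change was 2.48 (SE 0.56), with an adjusted p of 0.129, and DESeq2 gave an adjusted p of 0.00158. The call thus depended on the tool and, within edgeR, on the filter. Over all alternatives of the fit its adjusted p ranged from 4.06e-05 to 0.129. The 73 expressed genes within 5 Mb had a median log2 ratio of 0.04 in the group means.

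COL18A1 (ENSG00000182871, chromosome 21, 46825052 to 46933634, plus strand) encodes the multiplexin from whose C-terminal end endostatin is released. The libraries held 258, 380 and 827 reads, or 18.2, 23.3 and 47.7 CPM in the parental clone and resistant clones 1 and 2. Resistant clone 1 was close to the parental clone and clone 2 well above it. The group means were 820 in the resistant and 357 in the parental group, a log2 ratio of 1.20, whereas the 67 expressed genes within 5 Mb had a median of -0.43, which was not tested as a part of the difference. In the edgeR fit the log2 fold change was 0.96 (SE 0.49) with an adjusted p of 0.603. COL15A1, the other multiplexin, had no read in the 3 libraries.

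COL9A2 (ENSG00000049089, chromosome 1, 40766159 to 40783488, minus strand) and COL9A3 (ENSG00000092758, chromosome 20, 61447596 to 61472511, plus strand) encode chains of type IX collagen, a FACIT collagen of cartilage. COL9A2 was at 12.6, 17.5 and 24.3 CPM in the parental clone and resistant clones 1 and 2, and COL9A3 at 1.77, 5.45 and 2.89 CPM. For both chains each resistant clone lay above the parental clone, with the higher value in clone 2 for COL9A2 and in clone 1 for COL9A3. In the group means the log2 ratio was 1.50 for COL9A2, from 136 to 387 normalized counts, and 0.67 for COL9A3. The adjusted p of edgeR was 0.663 and 0.629. COL9A1, the remaining chain, was not found under that symbol among the deposited genes.

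To show the start regions of the members with the highest ratios, 200 bases are printed for COL13A1, for both starts of COL18A1 and for COL9A2, with COL12A1 as a gene lower in both resistant clones and COL4A5 as a gene that shares its start region with COL4A6. They are bases 250 to 51 before the RefSeq transcript start on GRCh38.p14, read 5′ to 3′ on the strand of the gene. Capitals mark matches to runs of letters, on either strand and with overlaps counted. The runs are those of the TATA box (TATAAA), the CAAT box (written here as CCAAT) and the GC box bound by Sp1 (GGGCGG).
COL13A1 (chr10:69801656-69801855, plus): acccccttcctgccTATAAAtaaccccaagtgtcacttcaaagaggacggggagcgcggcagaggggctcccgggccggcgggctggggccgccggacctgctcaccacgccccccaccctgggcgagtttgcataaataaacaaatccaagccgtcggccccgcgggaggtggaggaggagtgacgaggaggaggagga
COL18A1, upstream start (chr21:45404915-45405114, plus): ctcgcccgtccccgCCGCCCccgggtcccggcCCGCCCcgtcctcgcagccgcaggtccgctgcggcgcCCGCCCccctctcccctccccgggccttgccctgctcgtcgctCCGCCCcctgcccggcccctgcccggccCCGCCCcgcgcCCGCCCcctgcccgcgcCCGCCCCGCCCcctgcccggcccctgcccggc
COL18A1, downstream start (chr21:45455272-45455471, plus): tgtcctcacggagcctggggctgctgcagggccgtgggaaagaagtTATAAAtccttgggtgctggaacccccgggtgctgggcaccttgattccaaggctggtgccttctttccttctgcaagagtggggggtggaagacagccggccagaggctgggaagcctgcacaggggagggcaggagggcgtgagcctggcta
COL9A2 (chr1:40317337-40317536, minus): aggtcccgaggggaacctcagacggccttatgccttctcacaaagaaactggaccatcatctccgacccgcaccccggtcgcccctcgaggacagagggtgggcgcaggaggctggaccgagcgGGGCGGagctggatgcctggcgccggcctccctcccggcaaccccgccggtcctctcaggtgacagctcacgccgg
COL12A1 (chr6:75206104-75206303, minus): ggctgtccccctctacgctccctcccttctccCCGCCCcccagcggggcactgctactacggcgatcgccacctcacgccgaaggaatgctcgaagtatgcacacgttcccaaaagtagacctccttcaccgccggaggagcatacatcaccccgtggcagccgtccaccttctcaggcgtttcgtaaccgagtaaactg
COL4A5 (chrX:108439588-108439787, plus): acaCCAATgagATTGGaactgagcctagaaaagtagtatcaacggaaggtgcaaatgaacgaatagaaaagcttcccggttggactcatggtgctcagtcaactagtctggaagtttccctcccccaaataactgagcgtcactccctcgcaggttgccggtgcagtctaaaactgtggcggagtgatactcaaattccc

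The 2 start regions of COL18A1 differ in composition. The upstream one is 88.5% G and C with 30 CpG and 8 matches to GGGCGG, and the downstream one is 63% G and C with 5 CpG and a TATAAA match. The read counts are per gene, so they do not tell which start was used. Over all 35116 such regions of the RefSeq table, 7.63% hold TATAAA, 27.4% CCAAT and 35% GGGCGG, and the median composition is 57.5% G and C. Regions of 15 of the 22 expressed members were in that table, 20 regions in all, of which 4 hold TATAAA, 5 CCAAT and 11 GGGCGG. A match is a run of letters and was not tested as a binding site. All regions end 51 bases before the transcript start, so the bases nearest to the start were not searched. No match to TATAAA is called the TATA box of its gene here.

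The main chains of type IV collagen, COL4A1 (ENSG00000187498, chromosome 13, 110801318 to 110959496, minus strand) and COL4A2 (ENSG00000134871, chromosome 13, 110958159 to 111165374, plus strand), lie head to head and overlap at their starts in the table. COL4A2 was at 1181 CPM in the parental clone, 566 in resistant clone 1 and 1264 in resistant clone 2. COL4A1 followed the same order of resistant clones, at 457, 198 and 409 CPM. Resistant clone 1 was thus low for both chains and clone 2 near the parental clone. The level of COL4A2 per length was 2.68, 2.96 and 3.21 times that of COL4A1, so the ratio between the chains moved less than the level of either. Reads in the overlap of the genes could be split between them, since the counting was not stated to use strand. Against the parental clone, the 33 expressed genes within 5 Mb stood at a median log2 ratio of -0.35 in resistant clone 1 and 0.30 in resistant clone 2, and the part of this regional difference in the collagen values was not tested. In the group means the log2 ratio was -0.30 for COL4A2 and -0.54 for COL4A1, and edgeR gave an adjusted p of 0.916 and 0.788.

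COL4A5 and COL4A6 on the X chromosome, whose chains form type IV networks in epithelial basement membranes, start 347 bases apart on opposite strands. COL4A6 was at 171, 135 and 195 CPM in the parental clone and resistant clones 1 and 2, and COL4A5 at 116, 77.5 and 106 CPM. Both were lowest in resistant clone 1, and the log2 ratio of the group means was 0.14 and -0.05. The adjusted p in edgeR was 0.991 and 0.882. COL4A3 and COL4A4, the pair on chromosome 2 known from the kidney glomerulus, start 452 bases apart. COL4A4 had 21, 17 and 79 reads and COL4A3 only 4, 1 and 13, both with the highest value in resistant clone 2. COL8A1, a short-chain network collagen of endothelial and corneal basement membranes, had 128 CPM in the parental clone and 78.5 and 83.5 CPM in the resistant clones. Its resistant clones were both lower than the parental clone, with a log2 fold change of -0.66 (SE 0.33) and an adjusted p of 0.594 in edgeR, yet the group means gave a ratio of 0.16 in the other direction.

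COL7A1 (ENSG00000114270, chromosome 3, 48601506 to 48632700, minus strand) and COL17A1 (ENSG00000065618, chromosome 10, 105791044 to 105845760, minus strand) encode the anchoring collagens of basal epithelium. COL7A1 was at 1028 CPM in the parental clone and at 421 and 743 CPM in resistant clones 1 and 2. COL17A1 was at 627, 390 and 700 CPM. Resistant clone 1 was the lowest for both genes, and only for COL7A1 did both resistant clones lie under the parental clone. By edgeR the log2 fold change was -0.82 (SE 0.42) with an adjusted p of 0.607 for COL7A1, and -0.20 (SE 0.43) with 0.957 for COL17A1. The log2 ratios of the group means were -0.15 and -0.25. KRT5, a keratin of basal cells, was at 270 CPM in the parental clone and 9.81 and 13.9 CPM in the resistant clones, with an adjusted p of 0.00236 in edgeR. Its group means were 11544 (parental) and 2047 (resistant), a log2 ratio of -2.49. Of the same marker list, KRT17 was at 195, 17.2 and 53.4 CPM and TP63 at 102, 65.3 and 73.9 CPM. Their log2 ratios in the group means were -2.24 and -0.63. The part of these markers in the values of the basal collagens was not tested.

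Among fibrillar collagens, the chains of type I collagen, the main fiber of connective tissue, were both present. COL1A1 (ENSG00000108821, chromosome 17, 48260650 to 48278993, minus strand) was at 112, 97.1 and 61.4 CPM in the parental clone and resistant clones 1 and 2, and COL1A2 (ENSG00000164692, chromosome 7, 94023873 to 94060544, plus strand) at 59.0, 58.0 and 84.2 CPM. The chains moved apart in resistant clone 2. Per length COL1A1 stood at 1.70 times COL1A2 in the parental clone, 1.49 times in resistant clone 1 and 0.650 times in clone 2. The group means of COL1A1 were 1569 in both groups, a log2 ratio of 0.00, and those of COL1A2 gave 0.37. In the same libraries the summed fibroblast markers were at 0.989, 1.10 and 2.77 CPM, highest in resistant clone 2. There COL1A2 was also at its highest and COL1A1 at its lowest. The part of these markers in the type I values was not tested. COL27A1, a fibrillar collagen of cartilage, was at 168, 112 and 130 CPM, below the parental level in both resistant clones, with a log2 ratio of -0.46 in the group means and an adjusted p of 0.764 in edgeR. The genes near it were also lower, with a median of -0.25. COL5A2 and COL11A2, minor chains that join fibrils, had 28, 51 and 37 reads and 32, 23 and 26 reads. Their group mean ratios were 0.94 and -0.84, with adjusted p-values of 0.932 and 0.860 in edgeR. COL3A1, the partner of type I in soft connective tissue, had 0, 0 and 2 reads.

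Of the FACIT collagens, COL12A1 (ENSG00000111799, chromosome 6, 75794042 to 75915767, minus strand), which binds type I fibrils, was lower in both resistant clones. It was at 186 CPM in the parental clone, 140 in resistant clone 1 and 70.8 in clone 2. Clone 2 was here the lower of the resistant clones, unlike for type IV collagen. The group means were 5041 and 2785, a log2 ratio of -0.86, and edgeR gave a log2 fold change of -0.82 (SE 0.44) with an adjusted p of 0.628. The parental mean of 5041 normalized counts stands beside 2634 reads in the labelled parental clone. COL16A1, which lies near fibrils and basement membranes, was at 58.5, 33.9 and 69.0 CPM, with the resistant clones on either side of the parental clone and a log2 ratio of 0.10 in the group means.

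COL22A1 (ENSG00000169436, chromosome 8, 139600478 to 139926249, minus strand), a FACIT collagen of tissue junctions, had few or no reads in the resistant clones. The parental clone held 34 reads on it, resistant clone 1 none and resistant clone 2 held 2. The parental level was 13.1-fold above the level of 3 reads in clone 1, taken as the floor of a library. The counting interval for 34 against 0 reads begins at 10.1-fold. In clone 2 the parental level was 20.8 times the resistant one, with a counting interval from 5.33 to 179. In edgeR's fit its adjusted p was 0.0806, and with the size factors of DESeq2 in the same test it was 0.0371. By DESeq2 itself it was 0.197. The group means were 30.7 (parental) and 2.52 (resistant). COL22A1 thus passed the filter only through the parental group, so its lower values in resistant cells were partly built in by the selection.

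Type VI collagen, a beaded filament collagen of many tissues, is made of COL6A1 and COL6A2, adjacent genes on chromosome 21, with COL6A3. COL6A1 (ENSG00000142156, 47401651 to 47424964, plus strand) had 109 reads in the parental clone, 22 in resistant clone 1 and 199 in resistant clone 2. The resistant clones lay on either side of the parental clone, 8.52-fold apart in CPM. COL6A2 (ENSG00000142173, 47518011 to 47552763, plus strand) had 16, 2 and 7 reads, and both resistant clones were below the parental clone. In the group means the log2 ratios were -1.51 and -1.67, from 210 to 73.0 and from 28.9 to 8.42 normalized counts, while the 67 expressed genes within 5 Mb of each had a median of -0.42, whose part in the difference was not tested. By edgeR the adjusted p was 0.978 for COL6A1 and 0.514 for COL6A2. For COL6A1 the direction of the group means was that of resistant clone 1 alone. COL6A3 had 7, 2 and 15 reads.

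Collagen genes were mostly higher in resistant clone 2 than in resistant clone 1. This comparison was added after the data were seen. Each clone is 1 library, so it has no replicate check and no test. Clone 2 was above clone 1 for 18 of the 22 expressed members, against 49.2% of all expressed genes. With a pseudocount of 1 it was above by at least 2-fold for 9 members, against 6.45% of genes, and below by as much for 0, against 3.44%. These 9 were COL4A1, COL4A2, COL4A4, COL6A1, COL6A2, COL13A1, COL16A1, COL18A1 and COL22A1. Of them, COL22A1 (0 and 2 reads) and COL6A2 (2 and 7 reads) were at or under 3 reads in clone 1, so their place in this count rests on very few reads. Among the 20 members with more than 3 reads in both resistant clones, clone 2 was higher for 16, against 49.1% of such genes, by at least 2-fold for 7, against 6.03%, and lower by as much for 0, against 3.29%. The 4 members lower in clone 2 were COL12A1, COL1A1, COL9A3 and COL5A2. Against the parental clone the median log2 ratio of the members was -0.58 in resistant clone 1 and 0.10 in clone 2, whereas over all expressed genes it was 0.01 and 0.00094. Below the parental clone were 17 of 22 members in clone 1, against 49.4% of genes, and 10 in clone 2, against 49.9%. The members share the same 3 libraries, and pairs such as COL4A1 and COL4A2 share a start region.

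The 20 members below the level of expression held 27, 22 and 116 reads in all in the parental clone and resistant clones 1 and 2. Of these 20, 4 had no read in any library and 12 had at most 3 reads in each. The highest was COL25A1, a transmembrane collagen of neurons, with 1, 2 and 44 reads, so that its signal came from resistant clone 2 alone. Relative to the single parental read, clone 2 stood at a ratio of 36.0, with a counting interval from 6.13 to 1452. In an edgeR fit with no filter its adjusted p was 0.0261, and it was not tested with the filter. COL23A1, another transmembrane collagen, had 0, 1 and 7 reads. COL2A1 of cartilage had 2, 1 and 2 reads, and COL10A1 of growth plates none. At this depth 3 reads correspond to 0.212, 0.184 and 0.173 CPM.

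A list of 35 genes for the making of collagen and 10 of its receptors was described beside the chains. Of the processing genes 32 were expressed. LOXL4 fell in the resistant cells, the only one of them to pass edgeR's test, and none rose by that test. LOXL4, a lysyl oxidase-like enzyme that cross-links collagen, was at 169 CPM in the parental clone and at 22.1 and 39.7 CPM in the resistant clones. Its log2 fold change was -2.46 (SE 0.40) with an adjusted p of 0.0450 in edgeR, which called 0.403% of all genes lower, and the group means gave -2.69. With RLE scaling, a filter of 50, no filter or DESeq2, LOXL4, PXDN and SPARC were all called. Each of these settings also called more genes in all, both higher and lower, than the main fit. DESeq2 called 1.7% of all expressed genes. PXDN, peroxidasin, forms the sulfilimine cross-links of type IV collagen, and it was at 9.60 CPM in the parental clone and 36.2 and 67.8 CPM in the resistant clones, with an adjusted p of 0.0945 in edgeR. SPARC, a collagen-binding matrix protein, was at 16.8, 2.57 and 1.04 CPM with an adjusted p of 0.0583 in edgeR. Both resistant clones lay on the same side of the parental clone for each of these genes.

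SERPINH1, the collagen chaperone HSP47, was at 453 CPM in the parental clone and at 226 and 191 CPM in the resistant clones, and its group means were 6460 and 3205. Its log2 fold change was -1.12 (SE 0.34) with an adjusted p of 0.307 in edgeR. TGM2, a transglutaminase that cross-links matrix proteins, was at 624, 322 and 280 CPM, with an adjusted p of 0.351. Neither passed the test, although both were lower in both resistant clones. In the group means the log2 ratio of PXDN, SPARC, TGM2 and SERPINH1 was 2.31, -1.97, -1.41 and -1.01, and the other 27 expressed processing genes lay between -0.61 and 0.82. The expressed genes within 5 Mb of each had a median of 0.19, -0.35, -0.29 and -0.46, in the same order. The part of these regional values in the differences was not tested. P4HB, a subunit of the prolyl hydroxylase that modifies the chains, had 674, 597 and 663 CPM, and the hydroxylase PLOD3 had 280, 373 and 468 CPM. The median log2 ratio of the 32 genes was -0.05, and in the clones it was 0.16 and 0.25.

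Of the receptors 6 of 10 were expressed, and none passed the test, where 0.54% of all genes did. None had an unadjusted p under 0.05, and DESeq2 called none. ITGB1, the β chain of the collagen-binding integrins, was at 522, 463 and 462 CPM, and its partner ITGA2 at 295, 321 and 354 CPM. The collagen receptor kinase DDR1 was at 339, 337 and 485 CPM, and its relative DDR2 was below the level of expression. The 6 receptors lay between -0.11 and 0.46 in the log2 ratio of the group means.

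**Figure D4:**
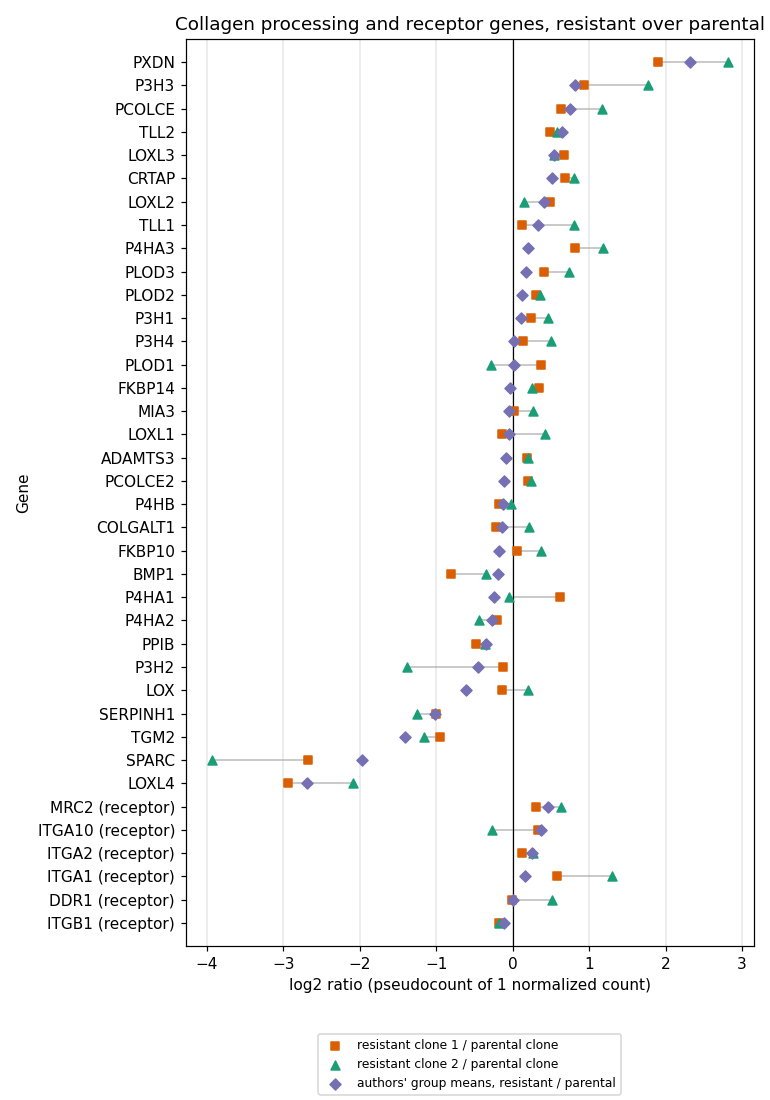
Log2 ratio of resistant to parental for the 32 expressed collagen processing genes and the 6 expressed collagen receptors, for resistant clone 1 (squares) and resistant clone 2 (triangles) against the parental clone and for the authors' group means (diamonds). PXDN lay highest at 2.31 in the group means and LOXL4 lowest at -2.69, and the 6 receptors lay between -0.11 and 0.46.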

How the data were processed

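Poly-A RNA of 5637 clones was sequenced by the authors. Per the submitters' processing notes CASAVA 1.8 and hg19 were used, and the aligner, counting tool and annotation are not given in the sources used here. The deposited table holds raw read counts and FPKM of each library, and the group signal, the authors' mean of counts divided by size factors. Gene length and positions are other columns that the authors deposited. The authors' own fold changes and p-values, from DESeq2, were not used, nor were 6 columns of libraries without a label. Total counts were 14475531 to 17461941 per library.

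Genes with a mean of the group means of at least 10 were fitted with edgeR 4.0.16 (TMM, quasi-likelihood, R 4.3.3), 1 parental against 2 resistant libraries, which leaves 1 residual degree of freedom. P-values were adjusted by the Benjamini-Hochberg method and the threshold was 0.05. Ratios between libraries used counts scaled to the mean library and a pseudocount of 1. Counting intervals are exact 95% binomial intervals. Alternatives were RLE scaling, DESeq2 1.42.0, filters of 50 and none, pseudocounts of 0.5 and 5, a fold of 1.5, centring, leaving out a resistant library, and subtraction of the median within 5 Mb. The comparison of the resistant libraries with each other, also over genes with more than 3 reads in both, was added after seeing the data. The fits were tested on simulated counts. Named were all expressed members, and of the processing and receptor lists those past the test or past 2-fold in the group means and the 3 with the highest mean (P4HB, TGM2 and ITGB1). Members below the filter, PLOD3, ITGA2, DDR1, DDR2, KRT5 and the other cell type markers named singly were singled out after their values were seen. Members and lists were chosen with earlier results of these data known. Promoter sequences are from RefSeq on GRCh38.p14, a build other than that of the table. Calculations also used Python 3.11.15.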

Additional observations from a re-analysis of the deposited data

How the results depend on the processing

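Against 20 genes higher and 59 lower over all expressed genes by edgeR, RLE scaling gave 66 and 111, DESeq2 123 and 125, a filter of 50 gave 53 and 79, and no filter 273 and 261. The cause was not tested. Of the collagen genes 0 were called by edgeR, 1 with RLE scaling (COL22A1), 1 by DESeq2 (COL13A1) and 3 with no filter (COL13A1, COL22A1 and COL25A1). Among the processing genes, 1 was called, and 3 (LOXL4, PXDN and SPARC) with a filter of 50, RLE scaling, no filter or DESeq2. At least 2-fold in the group means were 6 members, 10 at 1.5-fold (18.6% of all genes), 12 with no filter (9.62%) and 4 with a filter of 50 (4%). With that filter 3 were higher and 1 lower, since COL6A2 and COL22A1 drop out. Both passed the main filter only through the parental group, so the call of COL22A1 with RLE scaling was partly built in by the selection. The median log2 ratio of the members was -0.03 in the group means and -0.58 in resistant clone 1. Leaving out a resistant clone turned the sign of 5 members without clone 1 (COL4A2, COL17A1, COL4A6, COL16A1 and COL6A1) and of 2 without clone 2 (COL1A2 and COL4A4), none of them past the test. Centring on all expressed genes turned COL1A1, and subtraction of the regional median turned COL1A1, COL4A5 and COL16A1, all near 0 in the group means. RLE scaling and the other pseudocounts turned no sign among the 22 members. No paired analysis was run, since the paper describes the clones as independently derived and the labels name no pairs. Low depth limits COL22A1, COL6A2 and all members below the filter, and a single parental library limits every test.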

Other observations

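Some rows of the table carry a collagen name but are not members. COL4A3BP, which encodes a ceramide transfer protein and no collagen chain, held 909, 578 and 721 reads in the parental clone and resistant clones 1 and 2, and the other rows were low. The antisense genes COL4A2-AS1 and COL4A2-AS2 held 4, 2 and 3 reads and 2, 1 and 0 reads, against 16722, 9234 and 21893 on COL4A2. Since strand use was not stated, reads of the gene and of its antisense partners cannot be told apart. COL26A1, which the table types as a polymorphic pseudogene and which is therefore no member, held 2, 1 and 6 reads. The pseudogene COL6A4P1 held 7, 28 and 21 reads, with more in both resistant clones.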
